A study of Mus musculus with 7 samples.

Results

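Pericytes are the contractile mural cells that sit on capillaries and the smallest vessels, inside the basement membrane they share with the endothelium. Endothelial cells recruit them with platelet-derived growth factor and hold them through Notch3, and their tone is set by vasoactive peptides acting on G protein-coupled receptors. RGS proteins such as Rgs5 damp those receptors, and the channel built from Kcnj8 and Abcc9 ties their membrane potential to the energy state of the cell. In the seminal vesicle, a gland with a thick smooth muscle coat, they are a rare cell that shares many genes with that muscle. Here they were chosen by gene counts: a cell with at least 500 genes and at most 10% mitochondrial UMIs (unique molecular identifiers, 1 per captured RNA molecule) was a pericyte if it held at least 2 of the 4 genes Rgs5, Notch3, Kcnj8 and Abcc9 and no UMI of Pecam1, Cdh5 (endothelial) or Ptprc (leukocyte). The rule found 791 pericytes among 40342 kept cells.

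The cells came from tissue labelled seminal vesicle of 23 male mice, profiled as dissociated single cells in 7 libraries. A pool of 10 C57BL/6J mice on 5P76 chow held 2 mice each at 3 months (Y1, Y2), at 20 months (20C1, 20C2), at 20 months with rapamycin (20R1, 20R2), at 28 months (28C1, 28C2) and at 28 months with rapamycin (28R1, 28R2). A pool of 8 FVB/NJ mice aged 3 months held 2 each on control (Ctrl1, Ctrl2), calorically restricted (CR1, CR2), high fat (HF1, HF2) and low protein (LP1, LP2) diets. The other 5 FVB/NJ mice had a library each: Ctrl3, HF3 and LP3 at 3 months on the matching diets, and a control diet pair called Young (3 months) and Old (18 months). Each pool is 1 run of 1 strain with diets of its own, so strain, diet and run cannot be told apart between pools. Of the aging pool only Y1 and Y2 matched the diet pool in age, at 3 months. The kept cells of a mouse held from 971402 UMIs (Ctrl2) to 46333394 (Ctrl3).

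Members were spread unevenly. Young and Old gave 268 and 269 of the 791, the diet pool 154, the 3 single diet libraries 55 and the aging pool 45. Within the diet pool Ctrl1 gave 38 cells and Ctrl2 gave 8, and within the aging pool 20C2 gave 10 and 28C2 gave 1. The median member held 1660 UMIs and 906 genes. Only 1 barcode was shared by members of different libraries, of 179 shared between libraries among all kept cells.

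The label holds for some of the members only. Epcam, an epithelial adhesion molecule that pericytes lack, was seen in 158 of the 791 members, at 9.74% in the diet pool, 19.9% in Young and Old, 20% in the aging pool and 49.1% in the single diet libraries. Members with Epcam held a median of 5229.5 UMIs against 1428 in the other 633, and they made up 62 of the 77 members with a high doublet score. Higd1b, a mitochondrial protein typical of capillary pericytes that the rule did not use, stood at 58.4 CPM (the UMI counts of a gene scaled to the same total of UMIs in every sample) in members with Epcam and at 312 CPM in those without. The seminal vesicle secretory gene Svs5 showed the opposite order, at 49784 and 12612 CPM. The class comparisons were therefore run with all members and again with the 633 that lacked Epcam, a choice made after seeing the data, and values are of all members unless stated.

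Epithelial RNA was spread over members in a way that differed between libraries, as the plot of summed marker levels shows. In the aging pool, 8 of 8 basal epithelial genes were detected and summed to 2813 CPM, with Cldn4 the most abundant, and this fell to 96.7 CPM without the Epcam members. The sum went from 1605 to 120 CPM in the diet pool, from 2635 to 183 CPM in Young and Old, and from 3345 to 1725 CPM in the single diet libraries. The 7 secretory genes summed to 393170 CPM in members of the single diet libraries and still to 335140 CPM without Epcam members, the smallest relative drop of the 3 sets with secretory RNA. Smooth muscle, fibroblasts and endothelial cells of the same single diet libraries, none of them gated for secretory genes, held 247610, 153400 and 215670 CPM of the same genes.

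Young and Old stood apart from the other libraries. Their members held 8 of 8 epididymis genes at a summed 30839 CPM, led by the epididymal peroxidase Gpx5 at 20008 CPM, and Svs5 at 2.41 CPM against 51229, 33952 and 190933 CPM in the aging pool, the diet pool and the single diet libraries. Without Epcam members the epididymis sum in Young and Old was 747 CPM. The 7 secretory genes, which define the gland's epithelium, summed to 8.84 CPM in the pericytes of Young and Old and to 7.65, 7.98 and 9.58 CPM in their smooth muscle, fibroblasts and endothelial cells, where epididymis genes stood at 2767, 2819 and 1317 CPM. These values go against the tissue label of both libraries, which gave 268 and 269 of the 791 members, and the cause was not tested. The class comparisons are therefore also given without them. Low endothelial and immune RNA was largely set by the rule, which bars Pecam1, Cdh5 and Ptprc, so these sums are a description. Of 8 endothelial genes the summed level was 101 CPM in the aging pool, 165 CPM in the diet pool, 248 CPM in the single diet libraries and 215 CPM in Young and Old, with Cldn5 at 0 in all but Young and Old. Macrophage genes summed to at most 124 CPM (Cd74 most abundant), lymphatic genes to at most 10.1 CPM, and lymphocyte genes to at most 30.2 CPM. Fibroblast genes, led by Gsn, were more abundant, at a summed 2212 CPM in the aging pool, 1431 CPM in the diet pool, 744 CPM in Young and Old and 410 CPM in the single diet libraries. Without Epcam members they stood higher, at 4831, 1716, 1070 and 821 CPM in the same order. The mice with the highest fibroblast sums were 28C2 (18063 CPM, 1 pericyte) and 20R2 (12221 CPM). The 4 prostate-like genes, led by Spink1, summed to 10146, 3179 and 5358 CPM in the aging pool, the diet pool and the single diet libraries, and to 405, 462 and 3598 CPM without Epcam members. In the single diet libraries both sums are Spink1 alone, with Tgm4, Pbsn and Defb50 at 0. Hemoglobin transcripts came mostly from 1 mouse: the pericytes of CR1 held a summed 26788 CPM of erythroid genes, with Hbb-bs at 18520 CPM, and those of the other 22 mice at most 294 CPM (Ctrl1).

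**Figure D1:**
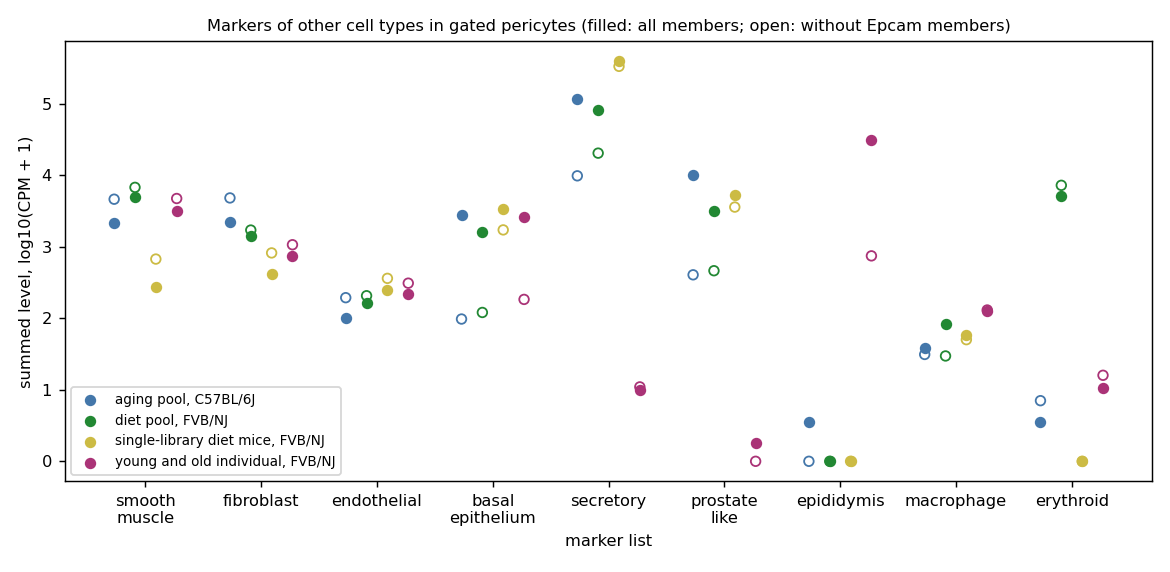
Summed CPM of 9 marker lists in pericytes, by set of libraries, on a log axis, with all members (filled) and without members holding Epcam (open). Basal epithelial RNA fell from 2813 to 96.7 CPM in the aging pool without the Epcam members, and epididymis RNA stood at 30839 CPM in Young and Old only, against at most 2.51 CPM elsewhere.

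The 4 genes of the rule are described here without a test, since they chose the cells. Exactly 2 of them were seen in 506 members, 3 in 220 and all 4 in 65. Rgs5 was detected in 91.3% of members, Notch3 in 64.0%, Abcc9 in 46.9% and Kcnj8 in 42.1%. The most common pair was Rgs5 with Notch3, in 279 cells, followed by Rgs5 with Abcc9 in 85, Rgs5 with Kcnj8 in 74 and the channel pair Kcnj8 with Abcc9 in 51. Both pairs of relatives are neighbours in the mouse genome (GRCm38). Kcnj8 at chr6:142564837-142571614 and Abcc9 at chr6:142587862-142702315, both on the minus strand, lie 16247 bases apart with no protein-coding gene between. Rgs5 at chr1:169655501-169695813 and Rgs4 at chr1:169741477-169747642, on opposite strands, lie 45663 bases apart with none between. Notch3 lies at chr17:32120820-32166852.

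Rgs5 summed to 2576 CPM over members, 311 CPM in blood endothelial cells, 68.0 CPM in smooth muscle and 1.60 CPM in fibroblasts. The counts are of 3′ molecules and were not scaled by gene length, and levels of different genes are set side by side as a description only. Notch3 stood at 345, Abcc9 at 249 and Kcnj8 at 213 CPM in members. Rgs5 rose with the number of rule genes a cell held, from 1860 CPM with exactly 2 to 3863 CPM with 3 and 4556 CPM with 4. As a rule gene itself, Rgs5 is favoured to do so. In the same order Higd1b, outside the rule, stood at 140, 268 and 363 CPM and Acta2 at 6211, 2769 and 1895 CPM. The 506 members with exactly 2 rule genes were thus the richest in Acta2. Just outside the rule, the 1619 cells with exactly 1 rule gene held Rgs5 at 201 CPM and Epcam in 34.9% of cells. A further 136 cells had at least 2 rule genes but also a UMI of Pecam1, Cdh5 or Ptprc, with Rgs5 at 1932 CPM. Across the 13 mice with at least 10 pericytes, Rgs5 ranged from 691 CPM (CR1) over a median of 1989 to 4304 CPM (LP1), with a mean of 2143 ± 1128 CPM (SD, n = 13). Notch3 ranged from 88.6 to 690 CPM (median 301), Kcnj8 from 52.4 to 300 CPM (median 195) and Abcc9 from 88.9 to 375 CPM (median 167).

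Against smooth muscle, the nearest relative and a class gated on contractile genes, pericytes held higher capillary pericyte genes and lower contractile genes. The 3456 smooth muscle cells held at least 3 of Myh11, Cnn1, Des, Actg2, Synpo2 and Lmod1, were not pericytes and lacked Pecam1, Cdh5, Ptprc and Epcam. UMIs were summed per mouse and class over the 12 mice with at least 10 cells of both classes (Ctrl1, CR1, CR2, HF1, HF2, LP1, LP2, Young, Old, Ctrl3, HF3, LP3), and tested with edgeR with the mouse as a block. A gene was called at an adjusted p (Benjamini-Hochberg, over all genes tested) under 0.05. Of 2214 genes tested, 652 (29.4%) were called, 385 (17.4%) higher and 267 (12.1%) lower in pericytes. Without Epcam members, 10 mice remained and 624 of 2306 genes (27.1%) were called (12.9% higher, 14.2% lower), 401 of them shared with the 652. Without Young and Old 26.0% were called (14.2% higher, 11.7% lower). The median log2 difference over all genes tested was 0.03. A gene entered the test when it was abundant enough in either class, so a list counted over tested genes can lean towards the class where its genes are high, and counts with no such filter are also given. With no filter 9.91% of 17694 genes were called, 5.60% higher and 4.31% lower. For single lists, counts without Epcam members or without Young and Old are over the list's genes that were also tested with all members and mice.

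Of the 10 capillary pericyte genes tested, 8 were higher in pericytes and 0 lower, with a median log2 difference of 2.31 against that 0.03. Without Epcam members 9 of 10 were higher, without Young and Old 7 of 7 were, and with no filter 10 of 15 were. Higd1b stood at 148 CPM in 20C2, at 128, 115, 25.7, 230, 400, 334 and 175 CPM in Ctrl1, CR1, CR2, HF1, HF2, LP1 and LP2, at 212 and 225 CPM in Young and Old, and at 214, 116 and 100 CPM in Ctrl3, HF3 and LP3. In smooth muscle it was at 0 in 8 of 13 mice and reached 18.1 CPM, below the lowest pericyte value. Its log2 difference was 4.95 (SE 0.362, adjusted p = 2.54e-08), and 5.41 without Epcam members.

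Vtn encodes vitronectin, an adhesive glycoprotein that pericytes secrete. It ranged from 11.2 to 194 CPM in pericytes (median 74.1, n = 13 mice) and from 0 to 2.17 CPM in smooth muscle, so the classes did not overlap, and its log2 difference was 6.19 (SE 0.374, adjusted p = 2.55e-09). Ndufa4l2 and Cox4i2, a pair of hypoxia-linked mitochondrial subunits, rose together, with log2 differences of 3.90 (SE 0.240) and 2.65 (SE 0.232). Ndufa4l2 averaged 296 ± 148 CPM in pericytes and 27.7 ± 18.6 CPM in smooth muscle (SD, n = 12). Pdgfrb, the receptor for endothelial platelet-derived growth factor, was higher by 2.56 (SE 0.257, adjusted p = 1.18e-06), at 180 ± 76.8 against 30.8 ± 23.1 CPM. Cygb, Aspn and the transcript Gm13889 were higher by 2.07, 1.88 and 1.10. Cspg4, the NG2 proteoglycan often used to stain pericytes, was outside the filter on low counts, and with no such filter it averaged 39.4 and 31.8 CPM (log2 difference 0.26, adjusted p = 0.804).

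**Figure D2:**
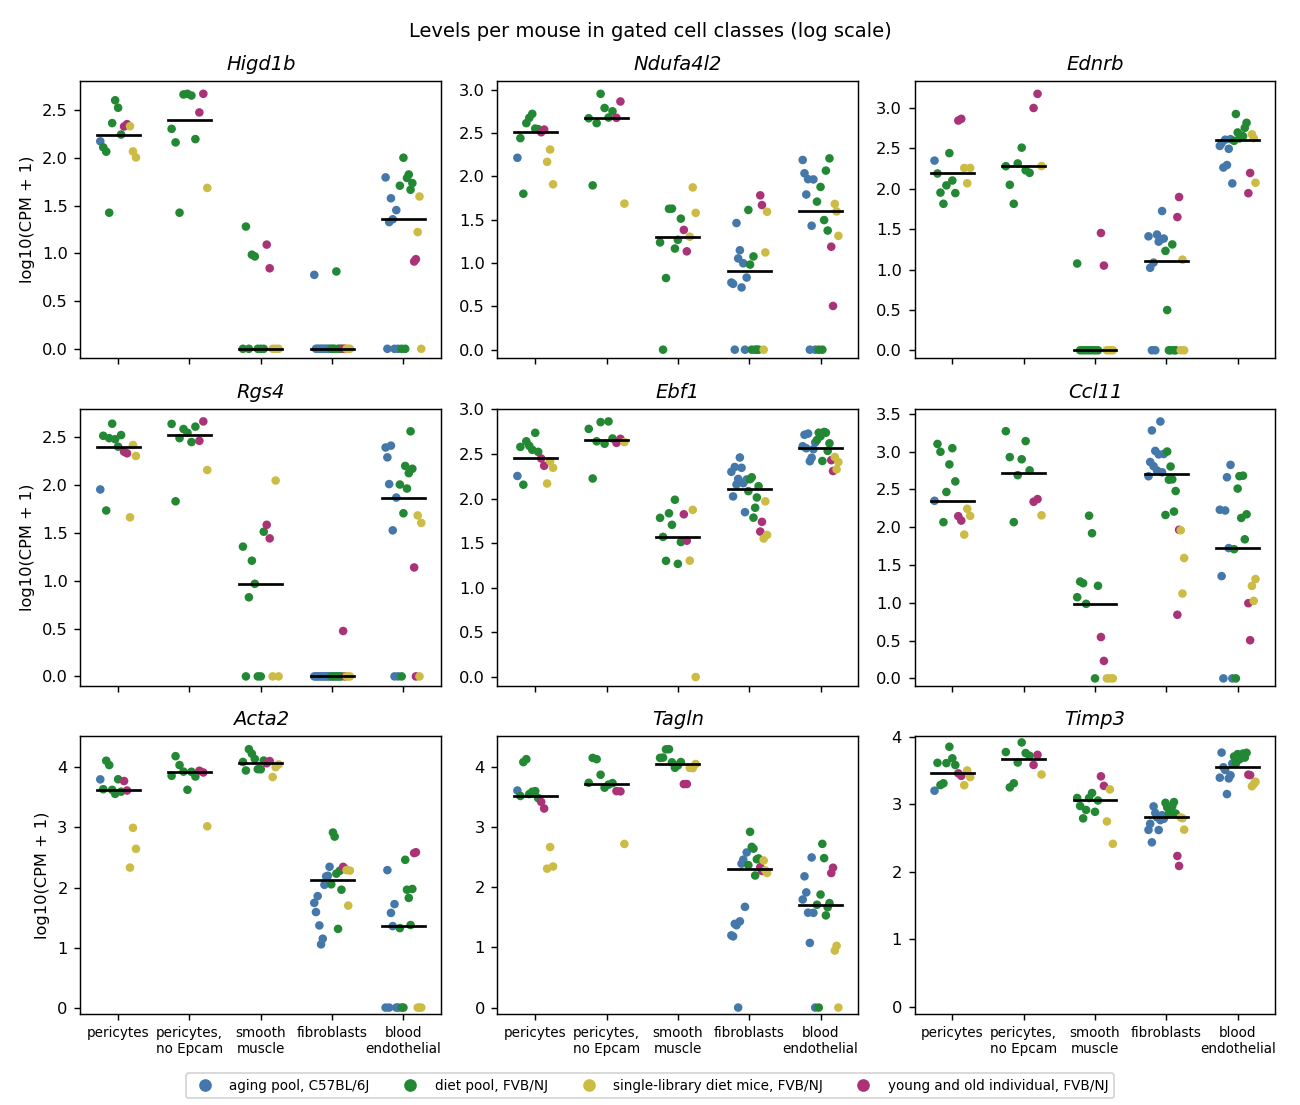
CPM of 9 genes per mouse (1 point each, log10 of CPM plus 1) in pericytes, pericytes without Epcam, smooth muscle, fibroblasts and blood endothelial cells, with the median as a black line. Higd1b in pericytes spans 25.7 to 400 CPM over 13 mice and stays at or under 18.1 CPM in smooth muscle, whereas Timp3 reaches similar levels in pericytes and endothelial cells.

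Vasoactive receptors split between the classes. Of 5 tested, 3 were higher in pericytes and 1 lower. Ednrb, the endothelin receptor that also clears endothelin, stood at 222 CPM in 20C2, at 154, 88.6, 64.2, 109, 275, 125 and 87.4 CPM in Ctrl1, CR1, CR2, HF1, HF2, LP1 and LP2, at 698 and 733 CPM in Young and Old, and at 180, 116 and 180 CPM in Ctrl3, HF3 and LP3. In smooth muscle it was at 0 in 10 of 13 mice and at most 27.3 CPM, with no overlap. Young and Old were the highest pericyte samples. The log2 difference was 5.61 (SE 0.334, adjusted p = 2.55e-09, higher in 12 of 12 mice). Ednra, the constrictor endothelin receptor, was higher by 1.13 (SE 0.237, adjusted p = 0.00131) and the vasopressin receptor Avpr1a by 1.63 (adjusted p = 0.0118), whereas Ramp1, a subunit of the calcitonin gene-related peptide receptor, fell by 0.80 on the log2 scale (adjusted p = 0.00837). With no filter on low counts, the angiotensin receptor Agtr1a (3.26) and the neuropeptide Y receptor Npy1r (1.57) were also higher. Over the whole list 7 of 26 were then higher and 3 lower. Without Epcam members 3 receptors were higher and 1 lower of 4 tested, and without Young and Old 2 and 1 of 3.

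Downstream of these receptors, 5 of 9 RGS and cyclic nucleotide genes were higher and 2 lower. Rgs4, the chromosomal neighbour of Rgs5, was higher by 3.56 (SE 0.292, adjusted p = 1.13e-07), at 246 ± 112 against 21.4 ± 31.0 CPM. The 2 subunits of soluble guanylate cyclase, the nitric oxide receptor, were both higher: Gucy1b1 by 2.85 and Gucy1a1 by 1.70. Rgs16 was higher by 1.25. Rgs2 and Mrvi1, parts of the relaxing cGMP arm in muscle, were lower by log2 differences of -1.05 and -0.57, neither of which was called without Epcam members, where 5 of 9 genes were higher and 0 lower. Pde5a, which breaks down cGMP, differed by 0.01 (adjusted p = 0.98). Of 3 ion channels tested, Itpr1 was lower (-0.98), and with no filter the cation channel Trpc6 was higher by 3.97, at 54.5 and 2.16 CPM.

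The contractile genes were lower in pericytes, though still abundant. Of 9 that the gates did not use, 8 were lower and 0 higher, with a median log2 difference of -1.23. The smooth muscle gate asked for at least 3 of 6 other genes of this list. That favours lower values in pericytes, so the count is a description. Acta2, smooth muscle actin, stood at 6326 CPM in 20C2, at 4338, 12938, 10945, 4233, 3628, 6352 and 3950 CPM in Ctrl1, CR1, CR2, HF1, HF2, LP1 and LP2, at 5941 and 4127 CPM in Young and Old, and at 214, 986 and 440 CPM in Ctrl3, HF3 and LP3. Smooth muscle ranged from 6923 to 20138 CPM, so the classes overlapped through CR1 and CR2. The single diet libraries, in which 49.1% of members held Epcam, were the lowest 3. The log2 difference was -1.70 (SE 0.348, adjusted p = 0.00118, lower in 12 of 12 mice) with all members and -0.90 (adjusted p = 0.00757) without Epcam members. Tagln fell by 1.95 on the log2 scale (SE 0.406), and by 1.10 without Epcam members. Tagln, Tpm2, Acta2 and Smtn were the 4 of 9 still called without Epcam members. Mylk, Tpm1, Flna and Myl9 were not. Myl9, the regulatory light chain of smooth muscle myosin, was lower by -1.24 (adjusted p = 0.00304) with all members and by -0.52 (adjusted p = 0.0778) without Epcam members.

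Contractile genes are classic targets of serum response factor, which binds CArG boxes, so the promoters of the list were searched for that box on the window before each RefSeq start (250 bases, GRCm38.p6). The pattern was CCWWWWWWGG, with W for A or T and no mismatch. Variant boxes and sites farther upstream were not searched, so a count of 0 does not show that a promoter lacks a site. Lists counted 1 window per gene and the total every window. The box reads as its own reverse complement, so a single search covers both strands. It was found in 1 of 12 contractile windows (8.33%), 0 of 8 capillary pericyte windows, 0 of 4 windows of the rule genes and 482 of 32851 windows in all (1.47%). The promoter of Myl9 is the contractile window that holds it, and is shown for that reason. The stretch is chr2:156775214-156775419 (plus strand), with the box, 117 to 108 bases before the gene start, in capitals:
Myl9 promoter: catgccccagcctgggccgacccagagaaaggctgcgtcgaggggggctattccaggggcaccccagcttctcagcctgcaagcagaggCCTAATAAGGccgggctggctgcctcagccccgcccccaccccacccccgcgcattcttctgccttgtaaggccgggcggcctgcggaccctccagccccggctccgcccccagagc

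Genes of the endothelial dialogue and the vessel wall followed. Of 6 crosstalk genes tested, 3 were higher and 1 lower. S1pr3, a sphingosine phosphate receptor, was higher by 2.05 (SE 0.288), the ligand Pdgfa by 1.03 and the EGF family ligand Hbegf by 1.39, the last reduced to 0.71 (adjusted p = 0.104) without Epcam members. Cxcl12, a chemokine that retains leukocytes, was lower by -1.54 (adjusted p = 0.000368) and lay below smooth muscle in 12 of 12 mice. Without Epcam members crosstalk genes were higher for 2 of 6 and lower for 1. Of 10 basement membrane genes, 4 were higher and 0 lower: Col18a1 (1.90), Col4a2 (1.33), Col4a1 (1.14) and Sparc (0.50), and 5 were higher without Epcam members. Of 14 interstitial matrix genes, 1 was higher and 1 lower (2 and 1 without Epcam members, 1 and 0 of 13 without Young and Old), with a median log2 difference of -0.48. With no filter 1 of 15 was higher and 6 were lower (3 lower without Epcam members). The higher one with all members, the metalloproteinase inhibitor Timp3, averaged 3410 ± 1498 CPM against 1184 ± 649 CPM, a log2 difference of 1.73 (SE 0.212, adjusted p = 1.17e-05), and in 13 mice its lowest pericyte value of 1585 CPM lay within the smooth muscle range of 258 to 2588 CPM.

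Of 10 transcription factors, 4 were higher and 0 lower, and without Epcam members 5 were higher. Ebf1, an early B cell factor also active in mural and adipose lineages, was higher by 2.82 (SE 0.198, adjusted p = 1.49e-08), at 309 ± 119 against 44.3 ± 28.6 CPM. Epas1, the hypoxia factor HIF2A, was higher by 1.94, Mef2c by 1.52 and Zeb2 by 1.03.

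Inflammatory ligands and adhesion genes split 4 higher and 3 lower of 13, and 5 to 5 without Epcam members. The eosinophil chemokine Ccl11 stood at 222 CPM in 20C2, at 1260, 992, 115, 291, 676, 1107 and 402 CPM in Ctrl1, CR1, CR2, HF1, HF2, LP1 and LP2, at 139 and 121 CPM in Young and Old, and at 78.7, 174 and 140 CPM in Ctrl3, HF3 and LP3. The diet pool mice were highest, with CR2 as the exception. The log2 difference was 4.94 (SE 0.506, adjusted p = 1.31e-06, higher in 12 of 12 mice), although smooth muscle reached 141 CPM and the ranges overlapped. The lymphoid chemokine Ccl19 (5.10), Il6 (3.09, at 541 ± 363 against 51.5 ± 46.0 CPM) and Cxcl1 (2.28) were higher as well. Cxcl14 and Csf1 were lower by -1.67 and -1.50, and so was the alarmin Il33. Among 19 genes that tissue dissociation induces, Junb was higher (0.61) and 0 were lower, while 2 were higher without Epcam members, 3 without Young and Old and 3 with no filter. In Young and Old, Jun and Btg2 were lower in pericytes than in smooth muscle, and in all 7 diet pool mice compared they were higher.

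Contractile genes were lower for 8 of 9 without Young and Old, and 4 of 7 RGS and cyclic nucleotide, 3 of 6 crosstalk, 4 of 7 basement membrane, 4 of 10 transcription factor and 3 of 11 chemokine and adhesion genes were higher (0, 1, 0, 0 and 2 lower). With no filter 9 of 9 contractile genes were lower, and higher and lower calls were 6 and 3 of 15 for RGS and cyclic nucleotide genes, 9 and 2 of 33 for crosstalk genes, 4 and 0 of 15 for basement membrane genes, 8 and 2 of 20 for transcription factors, 6 and 4 of 16 for chemokines and adhesion genes and 2 and 1 of 15 for ion channels.

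Other called genes of at least 50 CPM that moved one way in every mouse added some outside the lists. Apold1, an endothelial early response gene, was higher by 3.56 and the septin Sept4 by 3.52, both also without Epcam members. Il17b, Gabra2, Igfbp2, Rspo3 and Fbln5 were lower by between -3.41 and -2.52. Epithelial genes were among the largest rises with all members, such as the claudin Cldn4 (3.85) and the keratin Krt8 (3.41). All 7 secretory, all 6 basal epithelial and all 6 epididymis genes tested were higher with all members. Smooth muscle cells with Epcam were barred and pericytes with Epcam were not, so the gates favoured these rises. They are a description, and such genes count among the 385 higher calls. Without Epcam members 0 of the 7 secretory genes were called (median 0.85, against 2.31 with all members), although 5 of the 7 were higher when no filter on low counts was set. Only 2 basal epithelial genes passed the filter, with 0 called, and Krt8 differed by 0.35 (adjusted p = 0.674). Of 4 epididymis genes that passed it, 3 were lower in pericytes without Epcam.

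**Figure D3:**
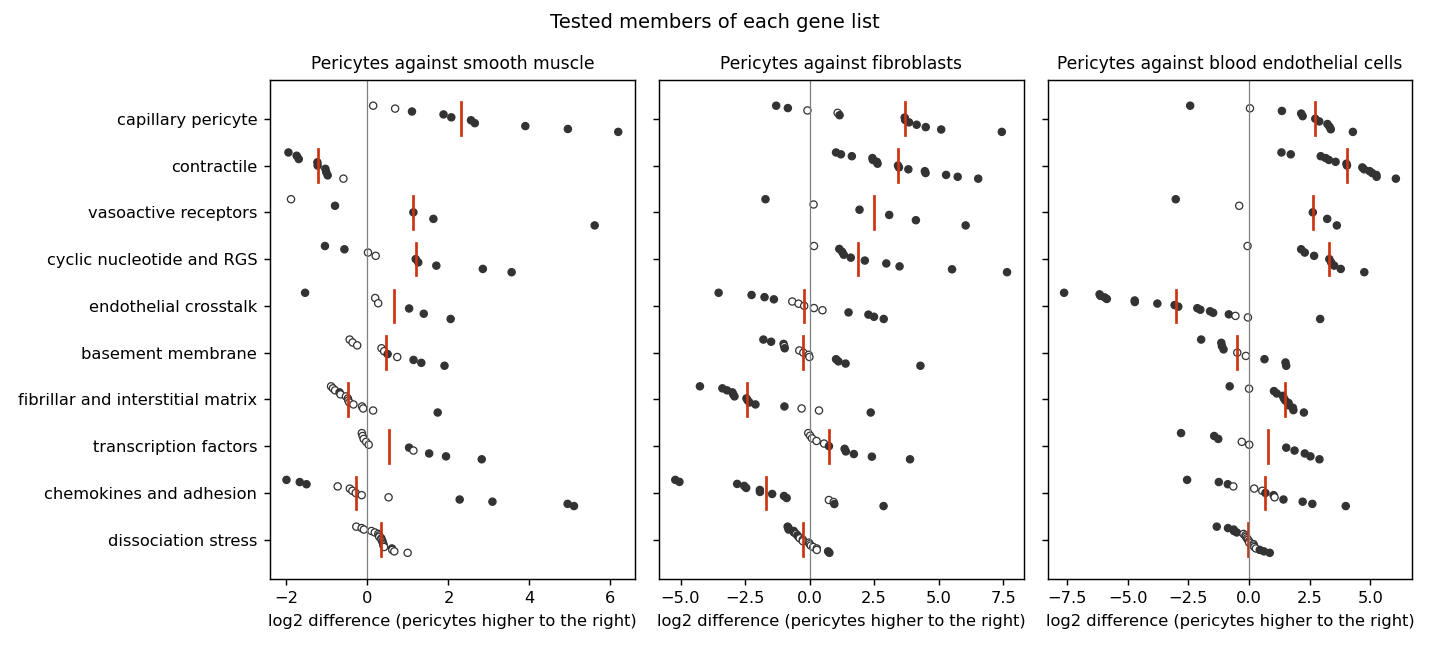
Log2 differences of the tested members of the gene lists on the vertical axis in pericytes against smooth muscle, fibroblasts and blood endothelial cells, with filled points at an adjusted p under 0.05, open points above it and the list median as a red line. The contractile median lies at -1.23 against smooth muscle, 3.43 against fibroblasts and 4.04 against endothelial cells.

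Against fibroblasts, which make the interstitial matrix of the gland, pericytes held higher contractile and lower interstitial matrix genes. The 1607 fibroblasts held at least 2 of Pdgfra, Dpt, Lum, Clec3b and Pi16 with the same genes barred. In 13 mice (the 12 above and 20C2), 1293 of 3179 genes (40.7%) were called, 641 (20.2%) higher and 652 (20.5%) lower in pericytes, and 885 of these were also called without Epcam members, where 41.6% of genes were called (17.9% higher, 23.7% lower). Without Young and Old 39.9% were called (20.2% higher, 19.7% lower), and with no filter 12.1% of 17690 genes were (4.94% higher, 7.13% lower). All 15 contractile genes were higher, with a median of 3.43, led by Cnn1 (6.53), Actg2 (5.74) and Myh11 (5.29). The rule genes' neighbour Rgs4 was at 0 in 21 of 22 mice in fibroblasts, with 1.98 CPM in Young, and between 45.0 and 437 CPM in pericytes (log2 difference 7.65, SE 0.300, adjusted p = 4.17e-13). With no filter 15 of 15 contractile genes were again higher. Of 10 RGS and cyclic nucleotide genes tested 9 were higher and 0 lower, among them the calcium pump regulator Pln (5.52), and with no filter 10 of 15 were higher and Rgs3 (-1.55) and Pde4d (-1.59) lower.

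Capillary pericyte genes were higher for 8 of 12 and lower for 2. Higd1b had a log2 difference of 7.45 (SE 0.334, adjusted p = 2.53e-12), at 186 ± 100 against 0.42 ± 1.51 CPM (SD, n = 13). The adhesion molecules Esam and Mcam were higher by 5.10 and 4.50, and Vtn by 4.15. Cygb, a globin of fibroblast-like cells, and Aspn, a small proteoglycan, were the 2 lower ones, at -1.29 and -0.84, the latter at -0.11 (adjusted p = 0.85) without Epcam members. Of 14 interstitial matrix genes 11 were lower and only Timp3 higher (2.37). Dcn, a collagen-binding proteoglycan, fell from 7730 ± 2520 CPM in fibroblasts to 465 ± 337 CPM in pericytes (-4.25), and Col1a1 was lower by -3.38. Basement membrane genes split 4 to 4 of 13: Lama5 (4.30, not tested without Epcam members), Col4a2, Col18a1 and Col4a1 higher, and Nid1 (-1.79), Sparc (-1.49), Hspg2 and Lama2 lower.

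Of 14 chemokines and adhesion genes 10 were lower and 2 higher. The monocyte chemokine Ccl2 ranged from 33.7 to 904 CPM over 13 mice in pericytes and from 1955 to 24230 CPM over 22 mice in fibroblasts, with no overlap (-5.20, SE 0.330, adjusted p = 3.82e-10). Ccl7 was lower by -5.04, Csf1 by -2.81 and Vcam1 by -2.45, whereas Ccl19 was higher by 2.87 and Il6 by 0.96. Ccl11 was not called here (0.75, adjusted p = 0.198, higher in 8 of 13 mice), nor without Epcam members (1.11, adjusted p = 0.0791), and was called without Epcam members and with no filter (0.96, adjusted p = 0.00389). Vasoactive receptors were higher for 4 of 6 and lower for 1, with Npy1r (6.05), Ednrb (4.12), Ednra (3.09) and Avpr1a (1.93). Transcription factors were higher for 6 of 11, led by Mef2c (3.89) and Epas1 (2.41), with 0 lower. Crosstalk genes split 4 to 4 of 13, S1pr3 (2.87), Pdgfa (2.50) and Hbegf (2.28) higher and Kdr (-3.52) among the lower. Without Epcam members the counts moved little for receptors (4 higher, 1 lower of 6), transcription factors (6 and 0 of 11), capillary pericyte genes (8 and 1 of 12), interstitial matrix (2 and 10 of 14) and chemokines and adhesion genes (3 and 9 of 14). Basement membrane genes were then higher for 2 and lower for 3 of 11, and crosstalk genes for 3 and 3 of 9. Contractile genes were higher for 13 of 14 without Young and Old, interstitial matrix genes lower for 11 of 14 and chemokines and adhesion genes lower for 10 of 13, while basement membrane genes were higher for 2 and lower for 5 of 11. With no filter, higher and lower calls were 11 and 2 of 15 for capillary pericyte genes, 1 and 11 of 14 for interstitial matrix, 2 and 10 of 16 for chemokines and adhesion genes, 7 and 3 of 25 for receptors, 7 and 8 of 32 for crosstalk genes, 4 and 6 of 15 for basement membrane genes and 6 and 0 of 20 for transcription factors. Of the ion channels, Kcnk3 (5.48) and Ano1 (1.43) were higher among 3 tested, and of 19 dissociation genes 2 were higher and 7 lower (3 and 3 without Young and Old).

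Outside the lists, Apold1 (5.83), the vascular connexin Gja4 (5.69), Mgst3 (4.46) and Tesc (4.42) were among the largest rises. Gm13861 had 241 UMIs in pericytes and 0 in fibroblasts, which makes it at least 111-fold higher against a floor of 3 counts over the fibroblast sum. The largest falls were Col6a5 (-7.82), Angptl7 (-7.39), Sult1e1 (-6.71), Adam23 (-6.69) and Cilp (-6.50). All 7 secretory, 6 basal epithelial and 7 epididymis genes tested were higher with all members, a description, since only the fibroblast gate barred Epcam. Without Epcam members 0 of 7 secretory genes were called (median 0.41, against 1.96), 1 basal epithelial gene was tested and not called, and 3 of 5 epididymis genes tested were lower.

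Against blood endothelial cells, the partner in the capillary wall, pericytes held higher contractile, capillary pericyte and interstitial matrix genes. The 1855 endothelial cells held at least 2 of Pecam1, Cdh5, Kdr and Emcn and lacked Ptprc, Epcam, Prox1 and Lyve1. In the same 13 mice 1579 of 2542 genes (62.1%) were called, 828 (32.6%) higher and 751 (29.5%) lower, and 1123 were also called without Epcam members, where 57.4% of genes were called (25.7% higher, 31.7% lower). Without Young and Old 58.1% were called (30.1% higher, 28.0% lower), and with no filter 23.2% of 16916 genes were (12.7% higher, 10.5% lower). All 15 contractile genes were higher, with a median of 4.04, and Acta2 by 6.06. Capillary pericyte genes were higher for 9 of 11, with Vtn (4.28), Ndufa4l2 (3.37), Higd1b (3.32, at 186 ± 100 against 35.7 ± 30.3 CPM) and Aspn (3.24). Esam, an adhesion molecule of endothelial junctions, was lower by -2.43.

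Of 18 crosstalk genes tested, 15 were lower and 1 higher, and with no filter 21 of 32 were lower and 5 higher. Several of the 18, such as Dll4, Tek and S1pr1, passed the filter only through the endothelial cells and so had to be lower, and the count is a description. The largest of the lower ones were the Notch ligand Dll4 (-7.62), the angiopoietin receptor Tek (-6.16), S1pr1 (-6.12) and the VEGF receptor Flt1, at 37.6 ± 47.5 against 2000 ± 489 CPM (-5.95), all receptors or ligands of endothelial cells. The lower genes also held Cxcl12, Hbegf, Tgfb1, Tgfbr2, Hes1 and Ackr3, which other cells make as well. S1pr3 was the higher one (2.94, SE 0.402). Pdgfa did not differ beyond the spread (-0.04, adjusted p = 0.875). Of 5 vasoactive receptors tested 3 were higher and 1 lower, and with no filter 13 of 25 were higher and 4 lower, with Ramp1 (3.62), Avpr1a (3.23) and Ednra (2.63) higher and Calcrl, the partner of Ramp1 in the receptor for calcitonin gene-related peptide, lower (-3.02).

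Ednrb was the receptor whose order depended on the library. Over all 13 mice it did not differ (-0.40, adjusted p = 0.448, lower in 9 of 13). Pericytes of Young and Old held 698 and 733 CPM and their endothelial cells 87.1 and 156 CPM, whereas in the 7 diet pool mice compared pericytes held 64.2 to 275 CPM and less than endothelial cells in each. Without Young and Old the gene was lower in pericytes by -1.16 (adjusted p = 0.00166). Young and Old are also the libraries with epididymis RNA and without secretory RNA, and the part of that in this result was not tested.

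RGS and cyclic nucleotide genes were higher for 8 of 9 tested and lower for 0 (10 and 2 of 15 with no filter, the lower ones Rgs3 and Pde4d), with Pln (4.75), Gucy1a1 (3.78), Gucy1b1 (3.51), Pde3a (3.39) and Rgs4 (2.30). The exception, Rgs16, differed by -0.06. Interstitial matrix genes were higher for 10 of 12, such as Col3a1 (2.26), Col1a2 (1.83) and Bgn (1.81), and Sparcl1 was lower (-0.80, and -0.19 without Epcam members). Timp3 did not differ beyond the spread, at 3270 ± 1521 and 3949 ± 1496 CPM (0.00, adjusted p = 0.993). Basement membrane genes split 3 to 4 of 9: Lamc3 (1.53), Col18a1 (1.51) and Lamb2 (0.64) were higher, and Hspg2 (-1.97), Col4a2 (-1.14), Sparc (-1.12) and Col4a1 (-1.05) lower. Without Young and Old 1 was higher and 5 lower of 8, and with no filter 3 were higher and 8 lower of 15. Set beside the comparison with smooth muscle, Col4a1 thus took a middle place, with medians of 638 CPM in pericytes, 294 CPM in smooth muscle and 1390 CPM in endothelial cells.

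Transcription factors were higher for 5 of 10 and lower for 3. Prrx1 (2.91), Nr2f1 (2.53), Zeb2 (2.30), Tbx3 (1.88) and Nr2f2 (1.54), factors of mesenchymal cells, were higher, and Lef1 (-2.80), Epas1 (-1.43) and Mef2c (-1.27) lower. Ebf1 did not differ beyond the spread (0.01, adjusted p = 0.968). The glucocorticoid receptor Nr3c1 was lower (-1.64). Of 13 chemokines and adhesion genes 6 were higher, with Ccl19 (3.99), Ccl11 (2.61), Cxcl14 (2.21) and Il6 (1.42), and 3 lower, namely Cx3cl1 (-2.55), Vcam1 (-1.24) and Icam1 (-0.87). Of 19 dissociation genes, 3 were higher and 5 lower. Without Epcam members 13 of 13 contractile genes tested and 7 of 8 RGS and cyclic nucleotide genes were higher and 0 lower. Higher and lower calls were then 9 and 1 of 11 for capillary pericyte genes, 3 and 1 of 5 for receptors, 10 and 0 of 12 for interstitial matrix, 3 and 4 of 9 for basement membrane, 5 and 3 of 10 for transcription factors, 6 and 2 of 13 for chemokines and adhesion genes, and 1 and 14 of 17 for crosstalk genes. When Young and Old were left out the contractile genes were higher for 13 of 13, capillary pericyte genes for 7 of 9 (1 lower), interstitial matrix genes for 7 of 11 (1 lower) and receptors for 2 of 4 (2 lower). With no filter 15 of 15 contractile genes were higher, and higher and lower calls were 12 and 1 of 15 for capillary pericyte genes, 12 and 1 of 15 for interstitial matrix, 10 and 3 of 20 for transcription factors and 8 and 4 of 16 for chemokines and adhesion genes.

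The largest falls were endothelial genes at or near 0 in pericytes. Cyyr1, Cd300lg and Myct1 had 0 of 2059406 pericyte UMIs, which makes them at least 232-fold, 142-fold and 120-fold lower against a floor of 3 counts over that sum. Cldn5, the tight junction claudin of vessels, was lower by -8.59 and Gpihbp1 by -8.24. Tesc (5.51), Rcan2 (4.59), Pdlim3 (4.46) and Rrad (4.45) were among the largest rises. The 7 secretory, 6 basal epithelial, 6 epididymis and 2 prostate-like genes tested were all higher with all members. This is a description, since only the endothelial gate barred Epcam. Without Epcam members 0 of 7 secretory genes were called (median 0.31, against 2.02), 0 of the 2 basal epithelial genes and of the 1 prostate-like gene tested were called, and 1 of 2 epididymis genes tested was lower.

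Pericytes were compared between the pools over mice with at least 5 of them, 8 mice of the diet pool and Y2, 20C1, 20C2 and 20R2 of the aging pool. Of 1024 genes tested with edgeR, 2 (0.195%) were called, both higher in the diet pool and 0 lower, 115 (11.2%) had an unadjusted p under 0.05, and DESeq2 called 1. Groups did not overlap for 2.25% of the genes tested, and without Epcam members 0.149% were called, all higher in the diet pool. Gdpd3, a lysophospholipase D, was at 0 in the 4 aging pool mice and at 186, 535, 115, 321, 231, 250, 272 and 280 CPM in the diet pool mice (log2 difference 7.08, SE 0.791, adjusted p = 0.00158). Against the floor of 3 counts this is at least 21.9-fold. Outside pericytes the order was the same: the rest of the kept cells averaged 1.37 CPM in the aging pool mice and 125 CPM in the diet pool mice. It was also present in pericytes of all 5 FVB/NJ mice with a library each, at 112 to 220 CPM. Lims1, an adaptor of focal adhesions, was higher by 1.57 (SE 0.291, adjusted p = 0.042), with the aging pool at 43.5 to 104 CPM and the diet pool at 154 to 325 CPM, and was not tested without Epcam members. In the other kept cells Lims1 lay at 16.2 to 31.9 CPM in the aging pool mice and 38.1 to 93.8 CPM in the diet pool mice, also without overlap. On leaving out any 1 of the 4 aging pool mice Lims1 lost its call. A limit of at least 10 pericytes per mouse left 20C2 alone in the aging pool, so that fit decides nothing. No gene of the capillary pericyte (6 tested), contractile (13), vasoactive (2) or any other list was called, and the 4 aging pool mice held 5 to 10 pericytes each.

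Pericytes of Young and Old were compared with those of the other 11 FVB/NJ mice. Of 1839 genes, 107 (5.82%) were called, 70 (3.81%) higher and 37 (2.01%) lower. Without Epcam members 33 of 845 (3.91%) were called, 22 of them shared, with 1.78% of genes higher and 2.13% lower. None of the 12 capillary pericyte genes and none of the 15 contractile genes tested was called. All 6 epididymis genes tested were higher and 6 of 7 secretory genes lower (median log2 difference -13.07). Without Epcam members 0 epididymis genes passed the filter on low counts. The 7 secretory genes did and kept a median of -12.26, with 0 called.

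The rises that pericytes held at or above the level of other cells included Ednrb, with 716 ± 24.8 CPM in Young and Old (n = 2) against 125 ± 72.0 CPM in the other 11 mice (log2 difference 2.18, SE 0.455, adjusted p = 0.00515, and 2.71, adjusted p = 0.00203, without Epcam members). In the other kept cells the gene stood at 13.7 CPM in Young and Old and 13.0 CPM in the rest. Gpx3, a secreted peroxidase, was also called, at 556 and 313 CPM against 0 to 40.0 CPM, but the other kept cells of Young and Old held it at a mean of 379 CPM as well. Cyb5r3 (1.72), Brd2 (1.53), Bcr (1.26), Gadd45b (1.23), mt-Nd2 (1.22) and Dazap2 (1.14) were also higher, and for these 8 genes the groups did not overlap, as for 8.65% of all genes tested. The other kept cells of Young and Old also lay above those of the other 11 mice for 69 of the 70 higher genes, Ednrb being the exception. Brd2, for instance, stood at 261 to 422 CPM in them against 19.8 to 151 CPM, and Cyb5r3 at 122 to 144 against 15.2 to 96.1 CPM. Leaving out Young or Old leaves 1 mouse against the other 11, which alone then give the spread. Such fits cannot show how far the calls rest on 1 mouse. Without Old the log2 difference of Ednrb was 2.12.

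Part of the falls moved with the software that made the counts, Cell Ranger 3.1.0 for the 5 libraries of 1 mouse and 6.0.1 for both pools. Of the 37 lower genes, 14 lay in all 5 mice of version 3.1.0 below all 12 mice of version 6.0.1. Nme2, a nucleoside diphosphate kinase, lay between 0 and 29.0 CPM in the pericytes of all 5 mice of version 3.1.0 and between 652 and 1416 CPM in the 12 mice of version 6.0.1. The proton pump subunit Atp6v0c lay at 0 to 1.93 and 88.9 to 699 CPM, and the import channel subunit Timm23 at 0 in 5 of 5 and at 69.6 to 267 CPM. Rnasek, Gng10, Dbndd2 and Tomm6 separated by version in the same way, and Rgs17 did not fully, at 0 to 29.0 and 0 to 160 CPM. The other falls did not separate by version. They included the 6 secretory genes, high in the single diet libraries of version 3.1.0, and the heat shock genes Hsph1 (-3.47) and Hspa1b (-3.09), both also lower in the other kept cells of Young and Old. The cause was not tested, and version, run and pooling cannot be told apart here.

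Between Young and Old themselves there is 1 mouse each and so no test. Of 102 list genes at 100 CPM or more in either, 0 were at least 2-fold higher in Old and 6 were in Young. Without Epcam members the balance turned, with 6 of 114 genes at least 2-fold higher in Old and 3 in Young (Lmod1, Actg2 and Cxcl14). The exact Poisson intervals (95%, counting error only) of Lmod1, an actin nucleator of smooth muscle, were 133 to 205 CPM around 166 in Young and 32.5 to 65.5 CPM around 46.9 in Old. Cxcl14 stood at 202 and 55.1 CPM, Dcn at 418 and 185 CPM, and Npy1r at 139 and 63.4 CPM. Cxcl12 and Il1r1 each stood at 123 and 60.7 CPM. Dcn, Npy1r, Cxcl12 and Il1r1 were within 2-fold without Epcam members. Of 10 capillary pericyte genes at this level, 0 differed by 2-fold with all members, from Higd1b at 212 (174 to 256) and 225 (191 to 262) CPM to Art3 at 71.4 and 135 CPM. Without Epcam members 3 of 12 were at least 2-fold higher in Old, namely Art3 (95.2 and 297 CPM), Cygb (213 and 517 CPM) and Cox4i2 (178 and 402 CPM), as were Mgp (520 and 1454 CPM), Lamc3 and Il34. Higd1b then stood at 298 and 468 CPM. The receptor Ednrb stood at 698 and 733 CPM with all members and at 1000 and 1496 CPM without Epcam members.

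Pericytes made up 0.982 ± 0.480% of kept cells in the aging pool (SD, n = 10 mice) and 3.17 ± 0.989% in the diet pool (n = 8). The aging pool ranged from 0.124% (28C2) to 1.86% (20C1) and the diet pool from 1.79% (CR1) to 4.60% (Ctrl2), so the pools overlapped only where 20C1 passed CR1. The difference of -2.18 percentage points had an exact two-sided permutation p of 4.571e-05 (adjusted 0.0001828 over 4 share tests; the smallest possible was 2.285e-05). Thinning every cell to 1000 UMIs left 0.538 and 2.07%, and leaving out Epcam members 0.811 and 2.91%. With at least 3 rule genes the shares were 0.229 and 1.04%, a difference of -0.813 percentage points. Counted against the endothelium alone, pericytes were 23.8 ± 10.4% and 43.2 ± 12.9% of pericytes plus endothelial cells (exact permutation p = 0.002308, adjusted 0.004616). With at least 3 rule genes they were 7.33 and 19.4%. Members with Epcam, depth and run differ between the pools too, and a share of dissociated cells counts what the dissociation released.

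Within the aging pool the group means were 0.845% at 3 months, 1.64% at 20 months, 1.24% at 20 months with rapamycin, 0.464% at 28 months and 0.724% at 28 months with rapamycin. These differed among the 5 groups of 2 mice (F = 6.00, exact permutation p = 0.01905, adjusted 0.0254), on 1 to 10 pericytes a mouse. With at least 3 rule genes the difference was not called (F = 3.12, adjusted p = 0.207, exact permutation test). The call was lost without Epcam members (F = 4.03, adjusted p = 0.113, exact permutation test), after thinning (F = 1.16) and on leaving out any of 6 of the 10 mice (Y1, Y2, 20C1, 20R1, 20R2 or 28R1). Within the diet pool the means were 4.10% on control, 3.09% on low protein, 2.79% on caloric restriction and 2.69% on high fat diet, which did not differ beyond the spread between mice (F = 0.759, exact permutation p = 0.581). Young and Old held 2.92% (95% exact binomial interval 2.59 to 3.29%) and 2.95% (2.61 to 3.32%), and Ctrl3, HF3 and LP3 0.451, 0.390 and 0.571%. These intervals and those in the plot of shares cover counting error only.

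**Figure D4:**
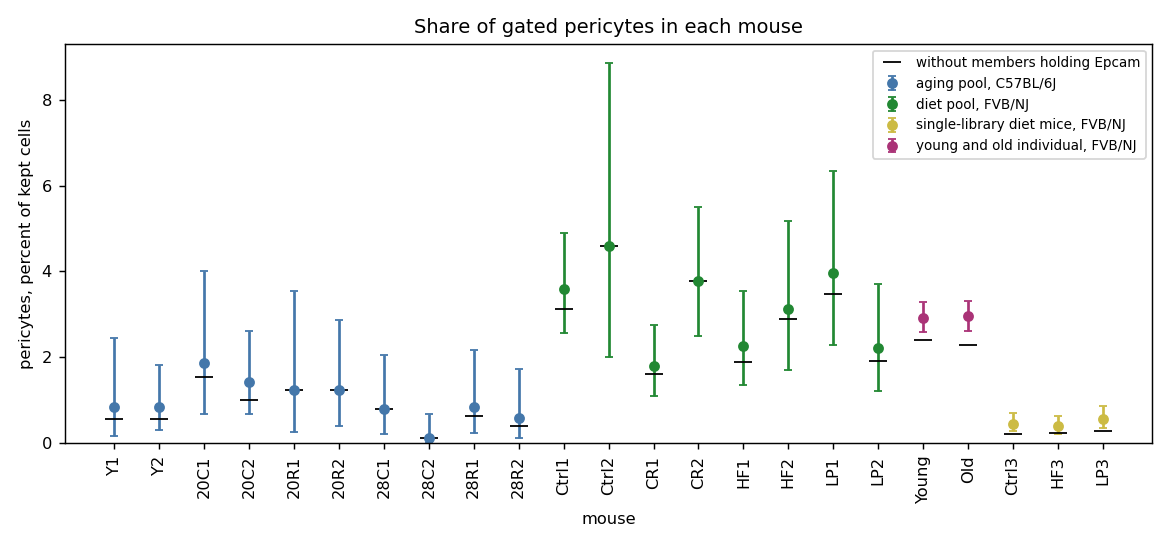
Percent of kept cells that were pericytes in each of the 23 mice (points coloured by set) with 95% exact binomial intervals as bars, and the percent without members holding Epcam as black dashes. The diet pool mice lie between 1.79 and 4.60%, the aging pool mice between 0.124 and 1.86%, and Young and Old at 2.92 and 2.95%.

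Clustering the members by themselves gave 13 subgroups, described by their leading genes and not tested, since the same genes made them. Subgroup 1, with 117 cells, came from the pools and single diet libraries and held Ccl2, Ccl7, Ccl11 (1963 CPM), Vcam1 and Dcn (1756 CPM). Its fibroblast genes summed to 4181 CPM, the highest of the 13 subgroups. Subgroup 7, with 47 cells from the same libraries, held the intermediate filament gene Prph, Tesc and Pln with Acta2 at 12932 CPM.

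The 3 subgroups with the highest Rgs5, numbers 6, 3 and 9, came almost wholly from Young and Old. Subgroup 3 (98 cells, 97 from Young and Old) led with Mrap, Ednrb (3949 CPM) and the peptidase Enpep, with Rgs5 at 11613 and Acta2 at 1063 CPM. Subgroup 6 (52 cells) led with Mgp (6601 CPM), an inhibitor of calcification, and the collagen Col15a1, with Rgs5 at 12553 and Higd1b at 992 CPM. Subgroup 9 (43 cells) led with the transcript Gm26917 (1221 CPM), followed by Agtr1a, Vtn and the early response gene Fos (16217 CPM), with Egr1 at 5750 and Rgs5 at 8099 CPM. These contrast with subgroup 2 (107 cells, 105 from Young and Old), led by Rergl, Sncg and Pln, in which the contractile list summed to 59834 CPM and Acta2 alone to 17820 CPM. Acta2 summed to 13044 CPM over the smooth muscle class. Subgroups 4, 5, 7 and 13 held 43995, 36049, 44104 and 91384 CPM of that list, and the rest at most 12346 CPM. Epcam was seen in at most 7.69% of the cells of subgroups 2, 4, 5, 7 and 13. Whether they are vascular smooth muscle was not tested.

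Subgroup 4 (78 cells) led with Colec11, followed by the elastic fibre gene Eln, Lmcd1 and Mfap5, and subgroup 5 (64 cells, 12 with a high doublet score) with Apod, Penk and Mfap4. Subgroup 13 (26 cells, 20 from the diet pool) had Rgs5 at 104 CPM and no Higd1b or Vtn, with Cnn1 at 4083 and Actg2 at 3792 CPM, markers of visceral smooth muscle. Epcam was seen in 89.4% of the 47 cells of subgroup 8 (Krt15, Krt14, Krt5), in 100% of the 39 of subgroup 10 (Gpx5, Lcn8), in 81.6% of the 38 of subgroup 11 (Tgm4, Pbsn, Svs2) and in 80% of the 35 of subgroup 12 (Krt17, Cldn1). Subgroup 8 was led by 1600014C10Rik, Apoe (22220 CPM) and AY761185 with keratins of basal epithelium after them, subgroup 12 by the keratin Krt17, Slco2a1 and Csf3, and subgroup 10 by Lypd8, Defb20 and Spag11b with Gpx5 (68414 CPM). The leading genes of subgroup 11 are both prostate-like (Tgm4, Pbsn) and secretory (Svs2, Svs3b, Sva), with Hbb-bs among them, and its secretory genes summed to 295210 CPM. Subgroups 8, 10, 11 and 12 held 31, 21, 9 and 0 of the 77 high doublet scores.

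Young and Old shared subgroups 2 and 3 at similar rates, 21.3 and 17.8% of their pericytes for the former, and 17.9 and 18.2% for the latter. Subgroup 4 held 22.4% of Young pericytes (95% exact binomial interval 17.5 to 27.9%) and 4.83% of Old (2.60 to 8.12%). Subgroup 6 held 3.73% (1.80 to 6.75%) and 15.6% (11.5 to 20.5%), and subgroup 9 held 3.73 and 11.5%. With 1 mouse of each age these are differences between 2 libraries.

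**Figure D5:**
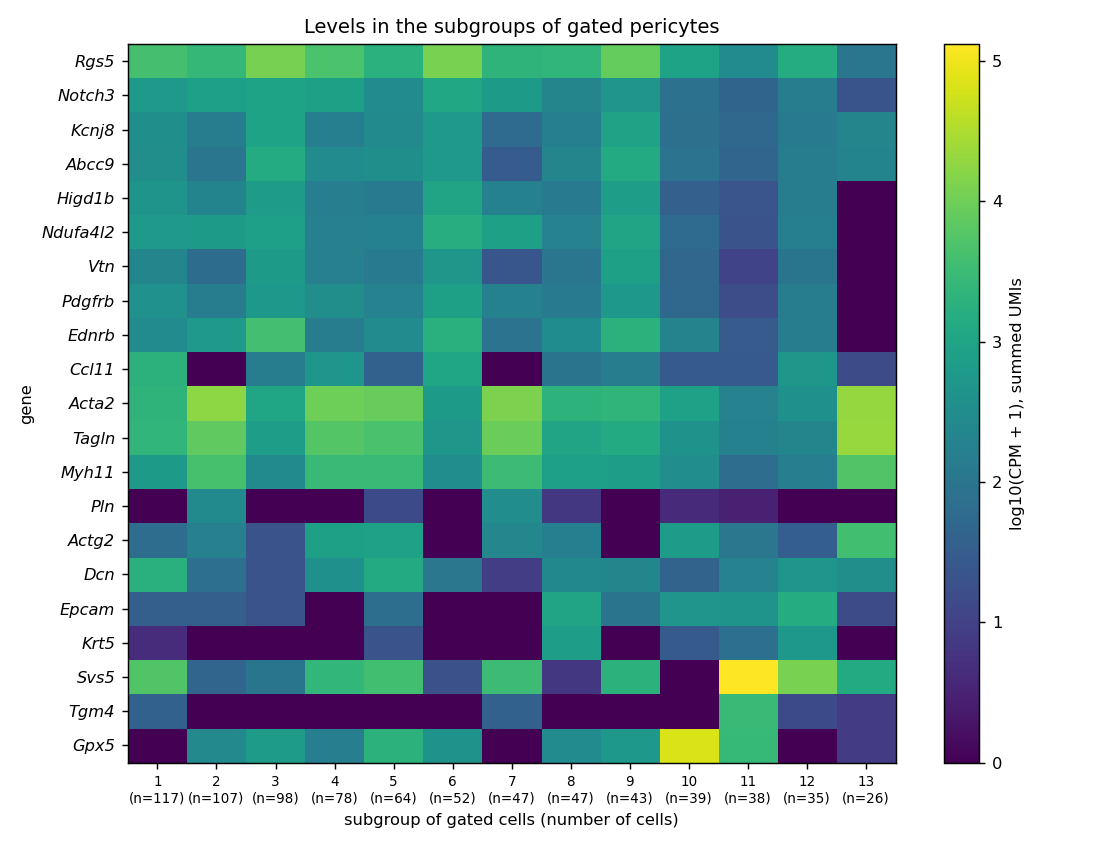
Level (log10 of CPM plus 1) of 21 genes in the 13 subgroups of pericytes, by colour, with the number of cells in each. Rgs5 is highest in subgroups 6, 3 and 9 at 12553, 11613 and 8099 CPM, and lowest in subgroup 13 at 104 CPM, where Acta2 is at 20254 CPM.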

How the data were processed

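The authors deposited a table of UMI counts per gene and cell for each of the 23 mice, made on mm10 with Cell Ranger 6.0.1 for the 2 pools and 3.1.0 for the 5 single libraries, the former split by sample tag. Build and tools, Seurat among them, are named in the submitters' processing notes or the file headers, and Seurat's output was not used here. The mouse behind each tagged table was taken from the pools' sample sheets and the study's list of animals. Counts over 30406 genes shared by all tables were used. UMIs of other genes came to between 0.0114 and 0.433% of a mouse's total, and 12 tag rows were left out. Of 53352 deposited cells, 40342 passed the limits on genes and mitochondrial UMIs.

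UMI counts were summed per mouse and class and tested in R 4.3.3 with edgeR 4.0.16 (glmQLFit and glmQLFTest, TMM scaling, filterByExpr, Benjamini-Hochberg adjustment), with DESeq2 1.42.0 as an alternative. SE is the log2 difference divided by the root of F. Class comparisons had the mouse as a block, since both classes came from the same animal and library. Deviations of the 2 classes from their means correlated within mice at 0.127 to 0.742 for smooth muscle, 0.0747 to 0.634 for fibroblasts and 0.0677 to 0.723 for endothelial cells. Genes that the pericyte rule or the gate of the class compared used were left out of that comparison's calls. In simulated counts 200 genes were changed by a log2 difference of 2. Every sample was drawn from the same mean profile with a fixed dispersion and no difference between mice or libraries. The rates thus check the code and do not give the power on the real counts. Of those that passed the filter, 188 of 188 were recovered against smooth muscle (2008 genes tested), 178 of 179 against fibroblasts (2825), 170 of 170 against endothelial cells (2193), 141 of 143 between pools (879) and 166 of 184 for Young and Old (1659).

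The pericyte rule, the gates and the gene lists were chosen with earlier results of these data known. Named genes were the rule genes, up to 4 called members of each list by size plus members of at least 100 CPM, in each class comparison the 10 largest rises and 5 largest falls of at least 50 CPM with 1 sign in every mouse, and within pericytes the 8 largest of each direction at or above the level of other cells. Other genes were named after their values were seen. Doublet scores assumed 0.8% doublets per 1000 cells of a library, marked 1753 kept cells and were used only as an alternative. Subgroups came from Leiden clustering (leidenalg 0.10.2, resolution 1, 15 neighbours, 20 principal components of 1000 variable genes). Shares were tested by exact two-sided permutation of mice (scipy 1.17.1), with Clopper-Pearson intervals. Promoters were taken from RefSeq on GRCm38.p6, with positions of genes from GENCODE on GRCm38. The result for 1 listed gene, and the summary of the list that holds it, are not reported here.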

Additional observations from a re-analysis of the deposited data

Results flagged for a closer look

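Among the groups of 4 to 10 mice, 2 of 16 held a mouse that stood apart. The count is not set against chance, since it holds Abcc9, a gene that chose the cells. HF2 had Ednrb at 275.2 CPM, on 14 pericytes. The other 6 diet pool mice with at least 10 pericytes held 64.16 to 153.6 CPM. Abcc9 in HF2 stood at 375.3 CPM against 121.3 to 229.8 CPM in those 6 mice, which is a description only. Ctrl2, with 8 pericytes, was not among them.

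In 320 contrasts compared between sets of libraries, 3 had every mouse of one set on the other side from every mouse of the other, and these differences were not tested. Pericytes of Young and Old held less Btg2 than their smooth muscle (mean difference -495.4 CPM) where the 7 diet pool mice compared held more (mean 314.2 CPM, 24.71 to 1128). Jun showed the same, at -1206 CPM against a mean of 414.8 CPM (26.3 to 1595). Both are early response genes that dissociation induces. Ednrb was higher in pericytes than in endothelial cells of Young and Old by 594.2 CPM, and lower in the diet pool by a mean of -361 CPM (-567.5 to -170.6).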

How the results depend on the processing

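Of the single genes named, 2589 gene and setting pairs kept their direction and side of the threshold, 184 lost the call, 61 gained it and 11 reversed. The pairs include fits that left 1 mouse in a group. Against smooth muscle, 652 calls became 1564 with DESeq2 (1197 lower), 1754 with no filter on low counts (991 higher, 763 lower), 1160 with at least 20 cells per class (631 higher, 529 lower) and 186 with no replicate block (92 higher, 94 lower), and 250 were higher without Young and Old. Against fibroblasts, 1293 calls became 2136 with no filter (1262 lower), 720 with at least 3 rule genes (292 higher, 428 lower) and 562 with no replicate block (307 higher, 255 lower), and DESeq2 called 1177 lower. Against endothelial cells, 1579 calls became 2396 with DESeq2 (1420 lower), 3924 with no filter (2141 higher, 1783 lower), 2576 with at least 20 cells (1286 higher, 1290 lower) and 538 with no replicate block (247 higher, 291 lower). Library size scaling gave 302 higher and 329 lower against smooth muscle, 534 and 650 against fibroblasts, and 572 and 935 against endothelial cells. Between the pools, the 2 calls became 1 with library size scaling, DESeq2 or without Epcam members, and 123 with no filter. On leaving out any aging pool mouse there was also 1 call (1 to 1). With at least 10 pericytes per mouse the calls were 0, but 20C2 was then the only aging pool mouse. A fit with 1 mouse on that side cannot show whether the calls depend on this limit. The fit with at least 3 rule genes could not be made. For Young and Old, 107 calls became 285 with DESeq2, 756 with no filter, 33 without Epcam members, 43 with at least 3 rule genes, and 44 (without Old) to 94 on leaving out a mouse. The F of the aging pool groups was 3.12 with at least 3 rule genes, 1.16 after thinning, 4.03 without Epcam members and 3.59 to 15.3 on leaving out a mouse, and that of the diet pool 0.167 to 1.69. Reversed log2 differences with at least 3 rule genes, on 3 mice, were Ccl2 1.16 against smooth muscle, Aspn 0.30, Btg2 -0.19 and Fos -1.24 against fibroblasts, and Ednrb 2.51, Col4a2 0.080, Mgp -0.26, Btg2 -0.22 and Ier2 -0.82 against endothelial cells. Ednrb also reversed to 1.60 with at least 20 cells (4 mice) and Sparcl1 to 0.47 against smooth muscle without Epcam members. The cause was not tested. Another scaling moved the median log2 difference of all genes by over 0.1 in these cases: with library size from 0.03 to -0.08 against smooth muscle, from 0.04 to -0.24 against endothelial cells, from -0.04 to 0.25 between the pools and from -0.06 to 0.24 for Young and Old, and with DESeq2 from 0.04 to 0.23 against fibroblasts, from -0.04 to 0.13 between the pools and from -0.06 to 0.43 for Young and Old. No paired analysis was possible for comparisons of mice within pericytes or of shares because each mouse gives 1 value and replicate numbers pair no animals across groups. With 1 to 10 pericytes per aging pool mouse, single genes were not tested between its age and rapamycin groups.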
